A study of Sus scrofa with 3 samples.

Results

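Cytochrome P450 (CYP) and aldehyde dehydrogenase (ALDH) genes were followed in visceral fat of the Wuzhishan pig, a miniature breed from China. A member is any gene of type mRNA whose name is CYP or ALDH followed by a family number, a subfamily letter and a gene number. The rule reads names and uses no measured value. The rule took 50 of 22826 mRNA genes, namely 35 P450 genes and 15 ALDH genes. RNA came from retroperitoneal fat of male pigs that were 6 to 7 months old when obtained and that were fed for 12 weeks on feed rich in fat and cholesterol (HFC diet). IM pigs were intact and received skin incisions only, CM pigs were castrated, and CMT pigs were castrated and injected each week with 10 mg/kg testosterone propionate in corn oil. All 3 groups ate the HFC diet, so no group on a normal diet enters. The RNA of each group was mixed before sequencing, from 4 pigs per group by the study's methods and from 4 to 6 by the sample labels. Each group is therefore 1 library, so differences between groups could not be set against a spread between replicates.

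P450 enzymes are haem proteins that insert oxygen into fats, steroids, vitamins and foreign compounds, with electrons from P450 reductase in the endoplasmic reticulum or from ferredoxin in mitochondria. ALDH enzymes oxidise aldehydes to acids, among them retinal, fatty aldehydes and intermediates of amino acid breakdown. The liver holds the richest set of both families, whereas fat uses a smaller set that handles retinoids, oxysterols, lipid aldehydes and foreign compounds stored with lipid.

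Levels are given in UQRPKM, which is reads per kilobase of gene scaled by each library's upper quartile, so levels of different genes can be compared. The reads behind each value were recovered from the values, and those on mRNA genes came to 14844063, 13582288 and 13449107. Unless said otherwise, 3 values given together stand for IM, CM and CMT, respectively. Log2 ratios are ratios of UQRPKM. The 95% intervals of single genes were computed from the reads by the exact Clopper-Pearson method, those of sums of genes by a normal approximation that adds the counting errors of the genes, and both cover counting error only. A member is called higher or lower at a 1.5-fold difference with at least 1 UQRPKM in both libraries. A call compares 2 libraries and is not a test of the condition.

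The libraries were checked against markers of fat and of other tissues. All 7 adipocyte markers in the values were above 0 in every library, with sums of 132843, 124145 and 107194 UQRPKM. CM also carried hepatocyte transcripts, and 20 of 27 hepatocyte markers were at least 10-fold higher there than in both other libraries. Of the 15811 mRNA genes above 0 in CM, 0.538% passed the same limits. The marker lists were chosen with earlier results of these data known, so they are no independent check. CMT carried skeletal muscle transcripts, and 10 muscle markers, of which CKM and MB were listed at 0, summed to 82.3, 68.3 and 6130 UQRPKM. Of 6 kidney markers 5 were listed at 0 in every library, and the other, LRP2, had 1 read, in CMT. Of 7 adrenal markers the regulator NR5A1 and INHA were listed at 0 throughout, and all 7 summed to 827, 1115 and 888 UQRPKM. Of 7 macrophage markers 6 were above 0 in each library, with CD163 at 0, and they summed to 4334, 3748 and 3501 UQRPKM. C1QA, at 2833, 2100 and 1993 UQRPKM, made up most of that sum. LOC100520753 (CD68) had 17.2, 42.9 and 22.2 UQRPKM, and EMR1 had 45.6, 93.6 and 30.6. Both were called higher in CM versus IM and lower in CMT versus CM. C1QA, CSF1R, CD14 and C1QB were not called in either comparison. Their log2 ratios in CM versus IM were -0.43, -0.22, 0.02 and 0.19, respectively. In such pooled bulk tissue, fewer cells of a type and less RNA per cell cannot be told apart.

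Of the 50 members, 37 were above 0 in at least 1 library, made up of 23 P450 and 14 ALDH genes. In all 3 libraries 25 members were above 0, of which 12 were P450 and 13 ALDH genes. These made up 50% of the members, beside 64.9% of all mRNA genes. CM alone held 7 members, namely CYP2E1, CYP2C32, CYP2C33, CYP2C42, CYP2C49, CYP7B1 and ALDH8A1. Over the 16836 mRNA genes above 0 anywhere, 2.39% were above 0 in CM only. Another 3 members were above 0 in CM and in 1 further library, with 1 read in that further library each. CYP1A2 and CYP4A24 shared IM with CM, and CYP4A21 shared CMT. CYP24A1, which inactivates vitamin D, was above 0 in IM only with 4 reads, and CYP21A2, the steroid 21-hydroxylase of the adrenal cortex, in CMT only with 1 read. CM held 35 members above 0, IM 28 and CMT 27.

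**Figure D1:**
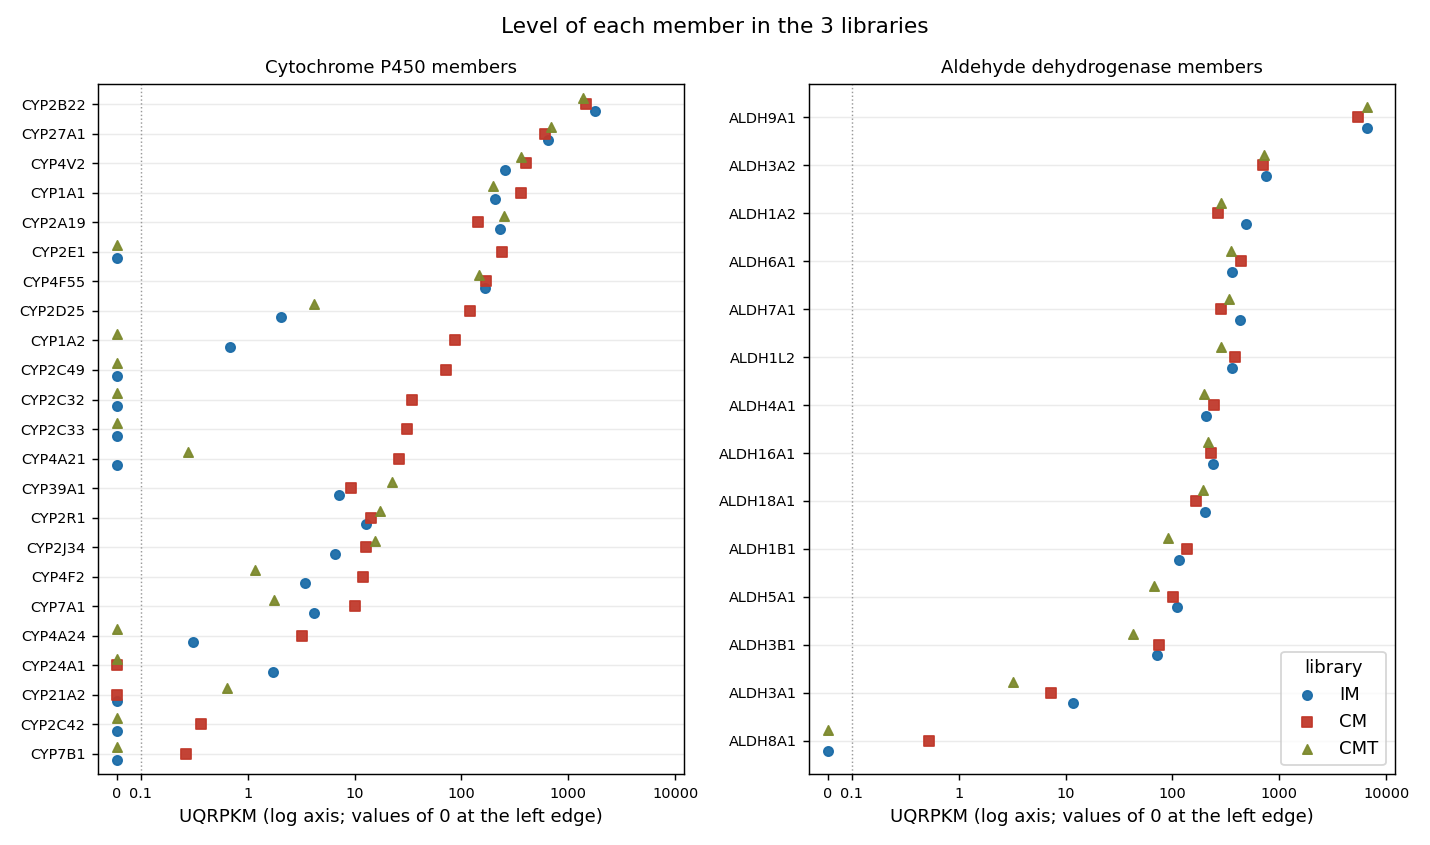
UQRPKM of the 37 members above 0 in any library, on a log axis, with P450 genes on the left and ALDH genes on the right; circles are IM, squares CM and triangles CMT, each 1 pooled library, and values of 0 are drawn at the left edge. The ALDH points of a gene lie close together, apart from ALDH3A1 and ALDH8A1, whereas 10 members stand in CM with IM, CMT or both at 0.

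The other 13 members, 26% beside 26.2% of all mRNA genes, were listed at 0 in every library. They were the steroid hormone enzymes CYP11A1, CYP17A1, CYP19A1 and CYP19A2, the drug enzymes CYP2C36, CYP3A22, CYP3A29, CYP3A39 and CYP3A46, the retinoic acid hydroxylase CYP26A1, the vitamin D activator CYP27B1, the widely expressed CYP20A1, and ALDH1L1, a folate enzyme. A listing at 0 is not proof of absence, because POR, the P450 reductase that nearly every cell uses, was also listed at 0 in all 3 libraries. CYP3A39 and CYP3A46 are names of 1 gene in the RefSeq table at hand, and the treatment of reads that fit several near-identical genes is not given in the sources used here. The CYP3A genes and CYP2C genes are therefore uncertain. All 4 CYP3A members stood at 0 in CM too, beside the hepatocyte transcripts there.

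Several P450 genes had most of their reads in CM. CYP2E1, which oxidises ethanol and, in pig liver, skatole, was listed at 0 in IM, at 241 UQRPKM in CM from 320 reads and at 0 in CMT. Its level in CM was at least 112-fold higher than 3 reads in IM would give and at least 110-fold higher than 3 reads in CMT would give. Its level in CM lay between those of CYP1A1 and CYP4F55. CYP2D25, the hepatic vitamin D 25-hydroxylase of the pig, had 2.04, 121 and 4.17 UQRPKM, from 5, 282 and 10 reads. The log2 ratio was 5.89 in CM versus IM (95% interval 4.65 to 7.52) and -4.86 in CMT versus CM (-5.93 to -3.96). CMT and IM did not differ beyond counting error for this gene, with an interval from -0.65 to 2.93.

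CYP1A2, a hepatic enzyme of caffeine and arylamine metabolism, had 0.681 UQRPKM in IM from 1 read, 87.1 in CM from 122 reads and 0 in CMT. CM exceeded IM by 7.0 on the log2 scale, and with 1 read in IM the interval ran from 4.49 to 12.32. CYP4A21, which hydroxylates bile acids in the pig, was listed at 0 in IM and had 25.9 UQRPKM in CM and 0.277 in CMT, from 91 reads and 1 read. Its level in CM was at least 31.8-fold higher than 3 reads in IM would give. CYP4A24, a fatty acid hydroxylase, had 1 read in IM, 10 in CM and 0 in CMT, or 0.305, 3.21 and 0 UQRPKM. The CYP4A24 level in CM was at least 3.50-fold higher than 3 reads in IM would give. All 3 of these genes were highest in CM, with 0 or 1 read in the other libraries.

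The CYP2C subfamily, which metabolises drugs and arachidonic acid in liver, gave 4 of the 7 members above 0 in CM alone. CYP2C32 had 34.6 UQRPKM in CM from 48 reads, CYP2C33 had 30.8 from 43 reads, and both were listed at 0 in IM and CMT. Against 3 reads in IM these levels were at least 16.8-fold and at least 15.0-fold higher. CYP2C49 reached 71.2 UQRPKM in CM and was also at 0 elsewhere. Its 9 recovered reads imply a gene of 89 bases, which is short for a P450 gene, so these reads are a lower limit and the bound of at least 3.15-fold against IM is a weak one. CYP2C42 rested on 1 read in CM, as did CYP7B1, an oxysterol 7-alpha-hydroxylase, and ALDH8A1, which acts on retinal and in tryptophan breakdown. For those 3 genes, a difference from IM and CMT was not detectable at this depth.

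At a 10-fold difference from both other libraries, counted with at least 3 reads, CM held 6 members: CYP1A2, CYP2C32, CYP2C33, CYP2D25, CYP2E1 and CYP4A21. They were 17.1% of the 35 members above 0 in CM, whereas 0.538% of the 15811 mRNA genes above 0 in CM passed the same limits. With 10 reads as the lowest base in place of 3, the count was 3, namely CYP1A2, CYP2D25 and CYP2E1. The share of all mRNA genes at that base is not given here. None of the 6 was an ALDH gene. Together they summed to 2.73, 540 and 4.45 UQRPKM, or 0.0818%, 14.2% and 0.145% of the P450 level of each library. These 6 were picked by their level in CM, so the sums describe them and test nothing.

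The hepatocyte markers were high in the same library. The 20 markers that were at least 10-fold higher in CM summed to 62.2, 9397 and 53.4 UQRPKM. The whole list of 27 summed to 3320, 12742 and 2848, since APOA1 and ITIH3 were abundant in every library. ALB, the serum albumin gene, had 10, 10612 and 15 reads, and APOB was listed at 0 throughout. In CM there were 3.02 reads of CYP2E1, 2.66 of CYP2D25 and 1.15 of CYP1A2 per 100 reads of ALB. These ratios count all CM reads of a gene, whatever their source, so they are not ratios of liver RNA. In IM, with 10 reads of ALB, CYP2E1 had 0 reads and CYP2D25 had 5. In CMT, with 15 reads of ALB, CYP2E1 had 0 reads and CYP2D25 had 10. The part of liver RNA in the CM values of these members was not tested.

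**Figure D2:**
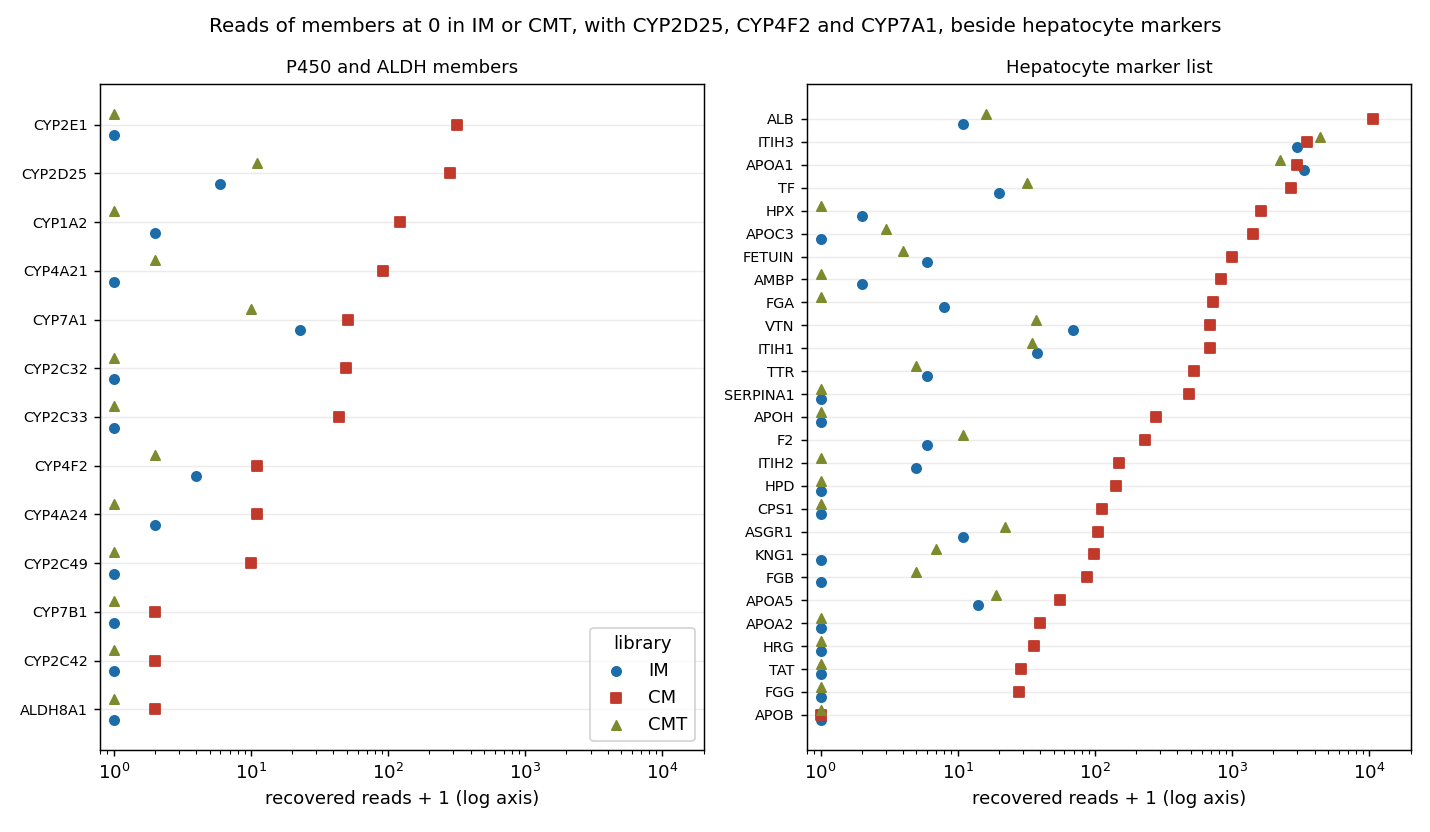
Recovered reads plus 1, on a log axis, of the 10 members above 0 in CM with IM, CMT or both at 0 and of CYP2D25, CYP4F2 and CYP7A1 (left), and of the 27 hepatocyte markers (right); circles are IM, squares CM and triangles CMT. The CM squares lie to the right for all 13 members and for 24 of the 27 markers, the others being APOA1, ITIH3 and APOB, which is at 0.

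CYP7A1 and CYP4F2 were highest in CM and above 0 in every library. CYP7A1, the rate-limiting enzyme of bile acid synthesis, had 4.20, 10.02 and 1.75 UQRPKM, from 22, 50 and 9 reads. The log2 ratio was 1.25 in CM versus IM (0.50 to 2.05) and -2.51 in CMT versus CM (-3.72 to -1.48), and CMT also lay under IM (-1.26, interval -2.56 to -0.08). ALB had 10, 10612 and 15 reads in the same libraries. The part of liver RNA in the CYP7A1 values was not tested. CYP4F2, a fatty acid and vitamin E hydroxylase, had 3.45, 12.1 and 1.17 UQRPKM from 3, 10 and 1 reads. Its interval in CM versus IM, from -0.15 to 4.31, included 0, and its recovered gene length of 583 bases is short, so its reads may be too low.

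Across the 25 members with at least 1 UQRPKM in both libraries, CM versus IM gave 6 higher and 3 lower members. They make 24% and 12% of these members, beside 8.38% and 10.4% of the 14123 mRNA genes. The share of lower calls was thus close to that of all genes. The median log2 ratio was 0.07 over the members, 0.52 over the 12 P450 genes and -0.10 over the 13 ALDH genes, and -0.06 over all mRNA genes. All 6 higher calls were P450 genes: CYP1A1, CYP2D25, CYP2J34, CYP4F2, CYP4V2 and CYP7A1. The lower calls were ALDH1A2, ALDH3A1 and CYP2A19.

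CYP1A1, the enzyme that the aryl hydrocarbon receptor induces against aromatic hydrocarbons, had 207, 358 and 197 UQRPKM, from 880, 1455 and 824 reads. CM was the high library, by a log2 ratio of 0.79 over IM (0.67 to 0.92), and CMT lay below CM at a log2 ratio of -0.86 (-0.99 to -0.74). IM and CMT did not differ beyond counting error, with an interval from -0.20 to 0.07. The part of liver RNA in the CYP1A1 value of CM was not tested. The receptor gene AHR had 55.2, 47.8 and 54.5 UQRPKM and its partner ARNT 185, 184 and 184, and neither was called in any comparison. CYP1A1 and CYP1A2 are adjacent genes on chromosome 7 in the RefSeq table of the later assembly Sscrofa11.1. CYP1A1 had 880 and 824 reads in IM and CMT, where CYP1A2 had 1 and 0.

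CYP4V2, a fatty acid omega-hydroxylase, had 255, 405 and 358 UQRPKM. Both castrated groups were above IM, CM by a log2 ratio of 0.67 (0.55 to 0.78) and CMT by 0.49 (0.37 to 0.60), of which only the first reached 1.5-fold. The part of liver RNA in the CYP4V2 value of CM was not tested. CYP4F55, of the same family, was at 165, 169 and 146 UQRPKM. Its intervals against IM, from -0.15 to 0.21 in CM and from -0.36 to 0.01 in CMT, both included 0. CYP2J34, of the subfamily that makes epoxides of arachidonic acid, had 6.6, 12.8 and 15.6 UQRPKM from 19, 35 and 44 reads. Both castrated groups were above IM for this gene, and the intervals of 0.11 to 1.84 and 0.43 to 2.10 excluded 0. EPHX2, the soluble enzyme that opens such epoxides, was at 1169, 1292 and 819 UQRPKM, lower in CMT than in CM at a log2 ratio of -0.66.

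CYP2A19 and CYP2B22 are close neighbours on chromosome 6 of Sscrofa11.1 with 2 protein-coding genes between them, and both were well above 0 in every library. CYP2A19, a CYP2A enzyme known for the breakdown of skatole in pig liver, had 230, 143 and 249 UQRPKM, from 363, 216 and 385 reads. CM was thus the low library, with log2 ratios of -0.68 against IM (-0.93 to -0.43) and 0.79 in CMT versus CM (0.55 to 1.04). Of the 27 hepatocyte markers 24 were highest in CM, and their part in the CYP2A19 values was not tested. CYP2B22, the pig CYP2B enzyme of foreign compounds, was the most abundant P450 gene in every library, at 1790, 1454 and 1364 UQRPKM. It was below IM in both castrated groups, at log2 ratios of -0.30 (-0.36 to -0.25) and -0.39 (-0.45 to -0.34), which did not reach 1.5-fold. CYP2B22 made up 53.7%, 38.1% and 44.5% of the P450 level.

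CYP27A1, the mitochondrial sterol 27-hydroxylase, came next among P450 genes in every library, with 648, 611 and 688 UQRPKM. Its interval in CM versus IM, from -0.22 to 0.05, included 0. CYP39A1, which hydroxylates 24-hydroxycholesterol, was low in IM and CM and high in CMT, at 7.15, 9.30 and 22.5 UQRPKM from 25, 31 and 77 reads. The log2 ratio was 1.27 in CMT versus CM (0.65 to 1.92) and 1.65 in CMT versus IM (0.985 to 2.36). Of the 10 muscle markers 8 were also high in CMT, and their part in this value was not tested. CYP2R1, a vitamin D 25-hydroxylase, had 12.7, 14.3 and 17.1 UQRPKM from 40, 43 and 53 reads, and all of its intervals included 0.

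**Figure D3:**
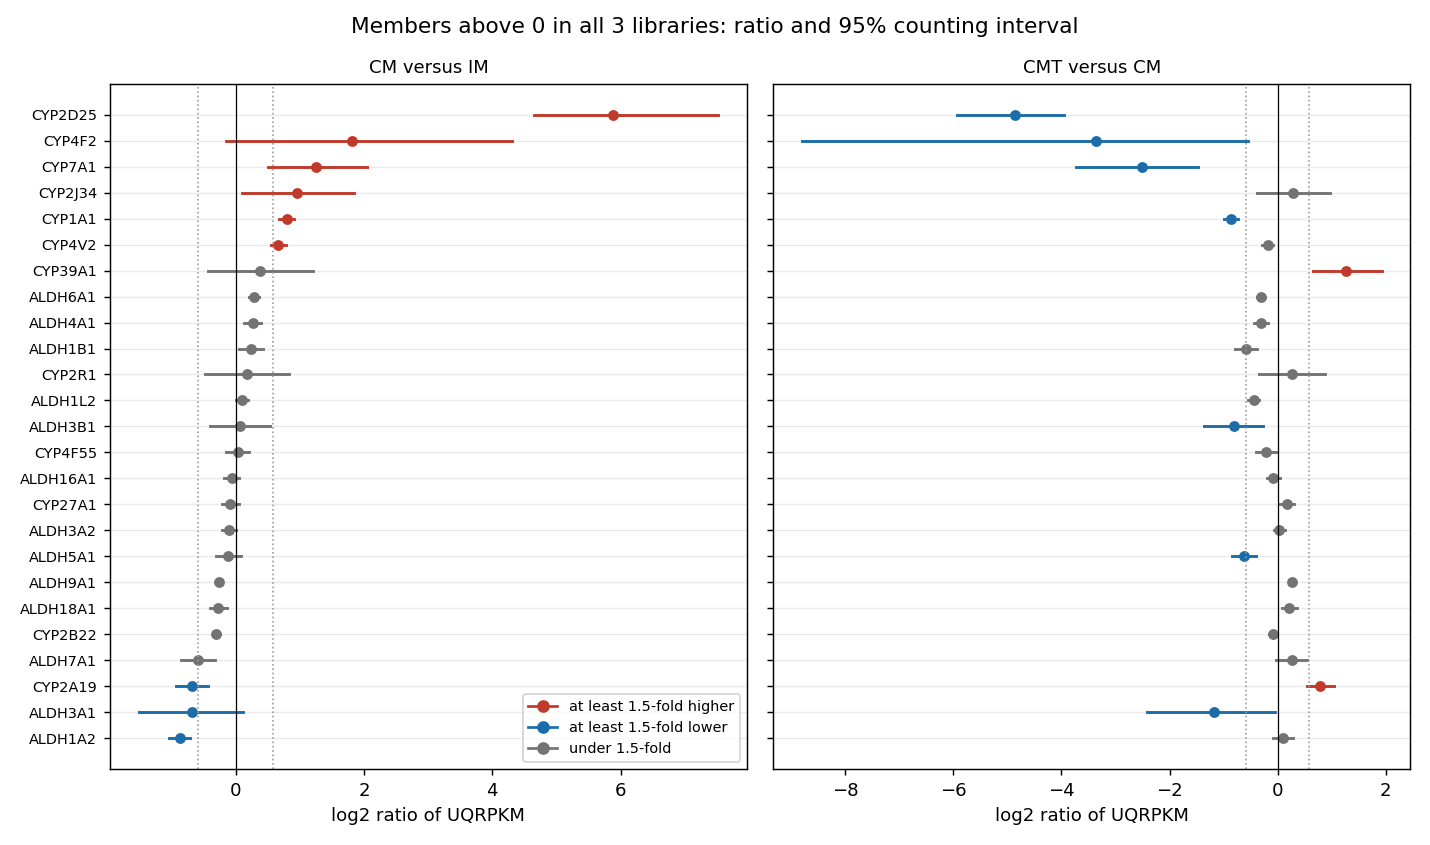
Log2 ratio of UQRPKM (point) with its exact 95% counting interval (line) for the 25 members above 0 in all 3 libraries, in CM versus IM (left) and CMT versus CM (right); red is at least 1.5-fold higher, blue at least 1.5-fold lower, grey under 1.5-fold, and dotted lines mark 1.5-fold. Both panels share the CM library, and the 6 members called higher in CM versus IM are P450 genes while ALDH1A2 is the lowest.

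Of the 15 ALDH genes 13 were above 0 in all 3 libraries, and 2 of these were called in CM versus IM. ALDH9A1, which makes the precursor of carnitine, dominated with 6599, 5504 and 6619 UQRPKM from 24356, 19358 and 23938 reads. It made up 66.4%, 64.5% and 70.3% of the ALDH level. CM was below IM at a log2 ratio of -0.26 (-0.29 to -0.24), whereas CMT and IM did not differ beyond counting error (-0.02 to 0.03). Without ALDH9A1 the ALDH level summed to 3334, 3035 and 2793 UQRPKM. ALDH3A2, the fatty aldehyde dehydrogenase, came second at 747, 697 and 714 UQRPKM, and its intervals in all 3 comparisons included 0.

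ALDH1A2, which turns retinal into retinoic acid, was higher in IM than in both castrated groups. It had 488, 267 and 286 UQRPKM from 912, 475 and 524 reads. The log2 ratio was -0.87 in CM versus IM (-1.03 to -0.71) and -0.77 in CMT versus IM (-0.93 to -0.61), and CMT and CM did not differ beyond counting error (-0.08 to 0.28). Both differences rest on the same IM library. Among the partners that handle retinoids, CRABP2, a carrier of retinoic acid, had 56.8, 77.9 and 32.3 UQRPKM, lower in CMT than in CM and IM, and CRABP1 had 25.4, 0 and 7.77 UQRPKM from 20, 0 and 6 reads. DHRS3, which returns retinal to retinol, was at 3682, 3916 and 3973 UQRPKM, under 1.5-fold in each comparison, and RDH10, which forms retinal, was listed at 0.

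ALDH3A1, an enzyme of lipid and aromatic aldehydes, was low at 11.8, 7.35 and 3.25 UQRPKM from 37, 22 and 10 reads. Only CMT versus IM and CMT versus CM excluded 0, at -1.86 (-3.03 to -0.82) and -1.18 (-2.42 to -0.04). ALDH3B1, its relative for lipid aldehydes, had 71.4, 74.9 and 42.8 UQRPKM, and ALDH5A1, the succinate semialdehyde dehydrogenase of GABA breakdown, had 111, 102 and 66.8. For both, CMT was the low library, at log2 ratios of -0.81 (-1.36 to -0.27) and -0.62 (-0.84 to -0.39) against CM. ALDH7A1, which acts in lysine breakdown, had 425, 283 and 340 UQRPKM. Its recovered gene length of 472 bases is short, so its reads may be too low. The ALDH7A1 ratio of -0.58 in CM versus IM (-0.85 to -0.32) lay just under 1.5-fold. ALDH1B1, a mitochondrial enzyme of short aldehydes, had 115, 136 and 91.0 UQRPKM and lay equally near the limit in CMT versus CM, at -0.58.

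The remaining ALDH members stayed within 1.5-fold in every comparison. ALDH6A1, which acts in valine breakdown, had 361, 440 and 357 UQRPKM, and ALDH4A1, which acts in proline breakdown, had 204, 246 and 199. For both, CM was the high library beyond counting error, and the part of liver RNA in their CM values was not tested. ALDH18A1, which acts in proline synthesis, had 201, 167 and 194 UQRPKM and was lowest in CM. ALDH1L2, the mitochondrial folate enzyme, had 359, 384 and 283 UQRPKM and was lowest in CMT, at a log2 ratio of -0.44 (-0.54 to -0.34) against CM. ALDH16A1, whose reaction is little known, was at 239, 229 and 217 UQRPKM.

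Testosterone replacement was compared with castration alone in CMT versus CM, which shares the CM library with the comparison above. Of the 25 members, 2 were higher in CMT and 7 lower, or 8% and 28%, beside 9.53% and 9.97% of the 14098 mRNA genes. The higher ones were CYP2A19 and CYP39A1, and the lower ones ALDH3A1, ALDH3B1, ALDH5A1, CYP1A1, CYP2D25, CYP4F2 and CYP7A1. The median log2 ratio was -0.30 over ALDH genes, -0.14 over P450 genes and -0.02 over all mRNA genes. The lower adipocyte sum of CMT stands beside these ALDH values, and its part in them was not tested. Of the 7 adipocyte markers only LEP was called lower in CMT versus CM. Their log2 ratios ran from -1.69 for LEP to 0.07 for PNPLA2, with ADIPOQ, the most abundant, at -0.12. In CMT versus IM, which shares a library with each of the comparisons above, 3 members were higher (CYP2D25, CYP2J34 and CYP39A1) and 6 lower (ALDH1A2, ALDH3A1, ALDH3B1, ALDH5A1, CYP4F2 and CYP7A1). That is 12% and 24%, beside 8.81% and 11.9% of the 14151 mRNA genes. The median was -0.32 over ALDH genes, 0.10 over P450 genes and -0.08 over all mRNA genes. Of these 9 calls, those of CYP2D25 and CYP4F2 had intervals that included 0.

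The summed P450 level was 3333, 3813 and 3065 UQRPKM. CM exceeded IM by 0.19 on the log2 scale (0.15 to 0.24). Leaving out the 6 members that were at least 10-fold higher in CM, the sums were 3331, 3273 and 3060, and the log2 ratio in CM versus IM was -0.03 (-0.07 to 0.02). Those 6 were picked by their level in CM, so leaving them out had to lower the CM sum. The ratio describes the other members and tests nothing. The summed ALDH level was 9933, 8538 and 9412 UQRPKM, lower in CM than in IM at a log2 ratio of -0.22 (-0.24 to -0.19). Without ALDH9A1 that ratio was -0.14 (-0.18 to -0.09). In CMT versus CM the whole ALDH sum gave 0.14 (0.12 to 0.17), and the sum without ALDH9A1 gave -0.12 (-0.17 to -0.07). The sign of the ALDH sum in CMT versus CM thus rests on ALDH9A1. By role, family 1 (CYP1A1 and CYP1A2) stood at 207, 445 and 197 UQRPKM and the fatty acid hydroxylases at 424, 615 and 505. Sterol and bile acid enzymes stood at 659, 630 and 712, and the retinal and folate ALDH genes at 962, 788 and 660. The 5 steroid hormone enzymes among the members summed to 0, 0 and 0.639.

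**Figure D4:**
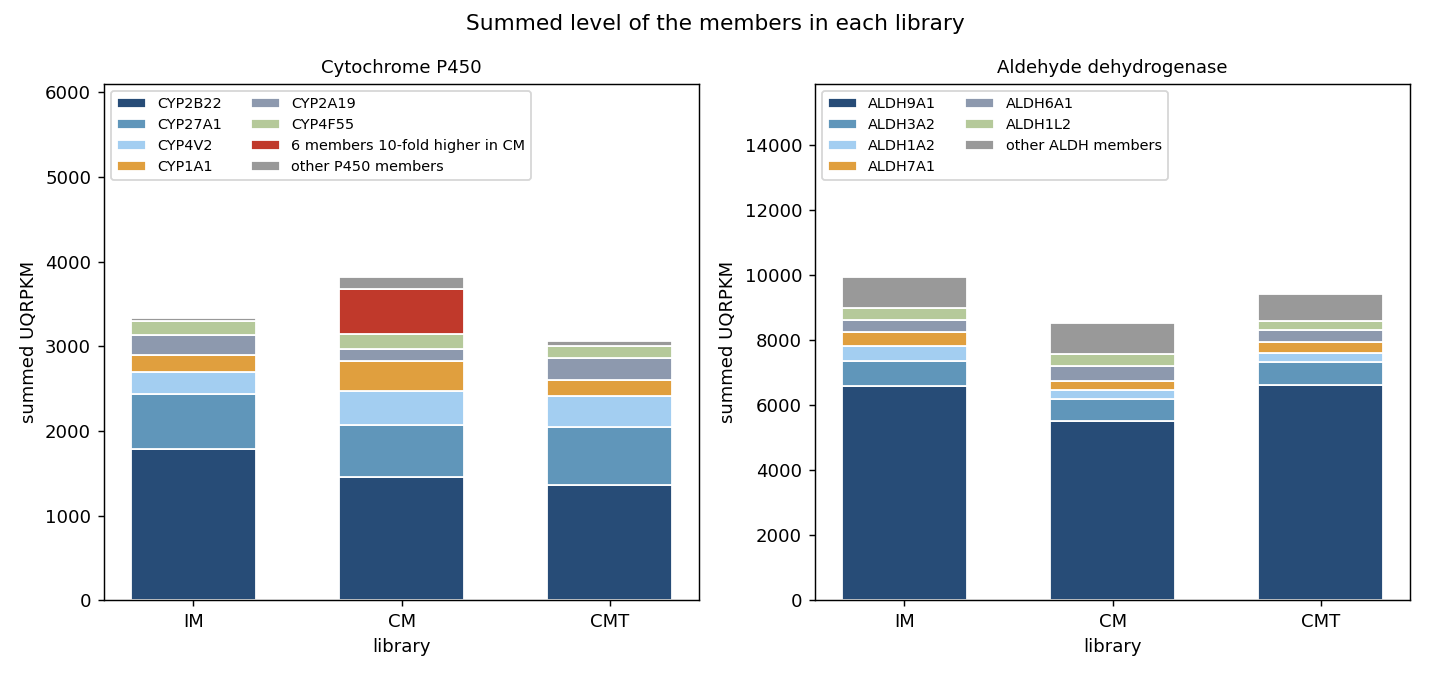
Summed UQRPKM of P450 members (left) and ALDH members (right) in each library, stacked by gene from 0, without error bars since each group is 1 library. CYP2B22 and ALDH9A1 form the largest blocks, and the 6 members at least 10-fold higher in CM (red) add 540 UQRPKM in CM.

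Among the genes that work with P450 enzymes, 1 of the 4 electron donors and 3 of the 8 regulators with at least 1 UQRPKM in both libraries were higher in CM than in IM and 0 were lower, beside 8.38% and 10.4% of all mRNA genes. The electron donor was CYB5A (cytochrome b5), with 825, 1248 and 1059 UQRPKM, and CYB5B, FDXR and FDX1L were not called. The regulators were PPARA, HNF4A and NR5A2, the last with an interval that included 0. HNF4A and NR5A2 were also called lower in CMT than in CM, at log2 ratios of -1.25 (-1.75 to -0.77) and -0.76 (-1.58 to 0.02). PPARA, the fatty acid receptor that induces CYP4A genes, had 37.1, 79.4 and 58.7 UQRPKM from 78, 159 and 121 reads. HNF4A, a liver and gut regulator, had 10.9, 18.1 and 7.62 from 76, 120 and 52 reads, and NR1I2, the foreign compound receptor that induces CYP3A and CYP2C genes, had 3 reads in CM and 0 in the others. None of the 3 haem supply genes was called. The part of liver RNA in these values was not tested.

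ALDH2, the main mitochondrial acetaldehyde enzyme, has no subfamily letter in its name and is no member. It had 825, 1288 and 537 UQRPKM, from 2517, 3744 and 1606 reads. CM was the high library, by 0.64 over IM on the log2 scale (0.57 to 0.72), and CMT versus CM gave -1.26 (-1.35 to -1.18). The part of liver RNA in the ALDH2 value of CM was not tested. CYP51, the lanosterol demethylase of cholesterol synthesis, was at 230, 192 and 231 UQRPKM, under 1.5-fold in each comparison. PTGIS, the prostacyclin synthase, was at 505, 386 and 466, and TBXAS1, the thromboxane synthase, at 12.02, 22.1 and 22.2 UQRPKM from 16, 28 and 29 reads, with intervals that included 0.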

How the data were processed

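Retroperitoneal fat RNA gave 1 pooled Ion Proton library each for IM, CM and CMT. After trimming, the authors mapped reads with MapSplice on the Sscrofa10.2 build, and they deposited UQRPKM, an RPKM scaled by the upper quartile in place of total reads. The counting tool and annotation are not given in the sources used here, and the deposited values carry no coordinates. Reads were recovered as the smallest whole numbers that fit each gene (relative tolerance 1e-08) with upper quartiles of 149, 142 and 146, which fitted all 20838 genes above 0. Reads with a common factor are too low by it. Calls need a 1.5-fold ratio and at least 1 UQRPKM in both libraries. The study's methods add a DEGSeq p-value, which was tried only as its MA-plot formula. That formula was applied to UQRPKM and not to reads, so its counts can differ from those of DEGSeq. Tables were made with Python 3.11.15 and scipy 1.17.1, and the recovery and the intervals were tested on simulated data. Values in full are given for members with at least 100 reads in all or a call, and every member with at least 10 reads in a library is named. Of 50 members 48 matched the RefSeq table of Sscrofa11.1 by symbol, which served for neighbours only, as the builds differ. The members and lists were chosen with earlier results of these data known. Scalings, a pseudocount, minimum levels, a 2-fold limit, 2 tests and a wider name rule were tried. One result among the partner genes is not reported here.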

Additional observations from a re-analysis of the deposited data

Results flagged for a closer look

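A gene outside the comparisons stood above its level in intact pigs. LOC100517137, which RefSeq names ALDH1A1 (a retinal dehydrogenase) and which the deposited values class as miscRNA, stood at 591, 700.0 and 552 UQRPKM (IM, CM and CMT), backed by 1465, 1655 and 1341 reads. CM exceeded IM by 0.25 on the log2 scale (95% counting interval 0.14 to 0.35), under 1.5-fold, and there is no replicate behind it. The part of liver RNA in this CM value was not tested.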

How the results depend on the processing

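No paired analysis was possible because each group is 1 pooled library, and for the same reason no replicate could be left out. Of 88 recomputed counts and sums, 67 kept their value within the limits used, 19 moved and 2 turned sign. For CM versus IM, a 2-fold limit left 3 higher and 0 lower members, beside 3.86% and 4.21% of all mRNA genes. DEGSeq's MA-plot formula, applied to UQRPKM, left 3 higher and 2 lower, beside 2.2% and 3.07%. For CMT versus CM, the 2-fold limit left 1 higher and 4 lower, beside 4.23% and 4.46%. The formula left 1 and 3 there, beside 2.79% and 3.01%. For CMT versus IM, the 2-fold limit left 3 higher and 3 lower, beside 3.96% and 4.25%. The formula left 1 higher and 2 lower there, beside 2.56% and 3.94%. An exact binomial test on reads at 1.5-fold dropped ALDH3A1, CYP2J34 and CYP4F2 from CM versus IM, ALDH3A1 from CMT versus CM, and CYP2D25, CYP4F2 and CYP7A1 from CMT versus IM. Making total reads equal ended the call of ALDH5A1 in CMT versus CM. The same scaling made CYP4V2 a higher call in CMT versus IM, at a log2 ratio of 0.595. The summed ALDH level in CMT versus IM, -0.08 on the log2 scale, was 0.030 with equal total reads, 0.0019 with median-ratio scaling and -0.034 with equal total UQRPKM, so its direction is not settled. That of ALDH in CM versus IM was -0.19 with equal reads and -0.16 with median-ratio scaling, and in CMT versus CM 0.22 with equal reads. The summed P450 level was 0.26 for CM versus IM with median-ratio scaling and -0.23 for CMT versus CM with equal reads, while CMT versus IM gave -0.014 with equal reads and -0.042 with median-ratio scaling. A base of 10 reads left 3 members 10-fold higher in CM, without a share of all mRNA genes at that base. The cause of these shifts was not tested. With at least 3 reads as the limit, 7 members were again found in CM alone, but 4 of them were the same genes. Of 150 single-gene ratios recomputed, 142 stayed within their interval and 6 changed sign, all with equal total reads and none of them called at 1.5-fold (ALDH16A1 in CMT versus CM, and ALDH18A1, ALDH3A2, ALDH4A1, ALDH6A1 and CYP1A1 in CMT versus IM). Scalings moved the log2 ratio of CMT to IM by up to 0.11 for every gene. With 10 reads or fewer in both libraries, as for CYP4F2 in CMT versus IM, the interval spans several fold.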

Other observations

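In the RefSeq table of Sscrofa11.1, CYP2C36, CYP2C32, CYP2C49 and CYP2C42 follow each other on chromosome 14 with 1 protein-coding gene between each pair. CYP2C36 was listed at 0 in every library and the other three were above 0 in CM alone. CYP2C91, which the deposited values class as miscRNA, stood at 8.25, 7.67 and 6.98 UQRPKM (IM, CM and CMT), backed by 35, 31 and 29 reads. Its intervals all included 0. LOC102162530, which RefSeq names ALDH1A3, a further retinal dehydrogenase, had 112, 93.4 and 98.6 UQRPKM, and no comparison reached 1.5-fold. CYP2C91 and these LOC genes were chosen after their values were seen.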
